A study of Homo sapiens with 9 samples.

Results

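The cytosolic ribosomal protein genes were followed in HCT116, a long-established cell line from a human colorectal cancer, after transient transfection of siRNAs directed at SNHG5, a long non-coding RNA. They were taken from the deposited table as the protein-coding genes named RPL or RPS with a number, plus RPLP0, RPLP1, RPLP2, RPSA and FAU. The rule found 77 members among the 15354 rows of the table, 31 of the small subunit and 46 of the large subunit. The members were chosen by name, and the rule uses no expression value.

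The 9 RNA-seq libraries formed 3 groups of 3: cells given a commercial non-targeting control siRNA, cells given siRNA A and cells given siRNA B. All were reverse transfected with 25 nM of siRNA per the labels, while the study's methods state another concentration. The time of harvest was not on the labels, but the study's methods state it. Each library held 15566530 to 23277549 reads of oligo-dT purified RNA. Genes are given as CPM, reads brought to a common library total, and differences as log2 fold changes of CPM + 1 after TMM scaling, which sets the bulk of all genes level between libraries. A gene was called higher or lower where limma gave an adjusted p under 0.05 over the 13893 tested genes. Of the epithelial markers EPCAM, KRT8, KRT18 and CDH1, all 4 were present, at TMM-scaled control means of 37.3 to 788 CPM. PTPRC and PECAM1, markers of blood and endothelial cells, had no row, and COL1A1, a fibroblast marker, stood at 16.7 CPM in control. These markers moved too: KRT8 and KRT18 were higher with A (1.06 and 1.01), KRT8 also with B (0.59), EPCAM was lower with A (−0.55), COL1A1 was lower with both (−0.46 and −0.79), and CDH1 was not called. Their part in the results below was not tested.

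The target went against the labels. In control libraries SNHG5 read 35.65, 26.3 and 28.6 CPM. Those labelled siRNA A read 63.9, 49.98 and 61.55 CPM, and those labelled siRNA B 47.8, 47.7 and 45.15 CPM. All 6 siRNA libraries were above all 3 controls, with log2 fold changes of 1.29 (SE 0.13, adjusted p 1.862e-05) for A and 0.83 (SE 0.13, adjusted p 5.901e-04) for B. By quantitative RT-PCR in HCT116, the study reported that both of its siRNAs lowered SNHG5, the opposite direction. Those measurements were not analysed here. Every direction below is therefore one between libraries as labelled.

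Ribosomal proteins bind ribosomal RNA to form the small subunit, which reads the mRNA, and the large subunit, which joins amino acids. Their mRNAs start with a C followed by a run of pyrimidines, the terminal oligopyrimidine (TOP) tract, through which mTOR signalling and the RNA-binding protein LARP1 control how they are translated and kept. The genes are among the most active in dividing cells, many carry small nucleolar RNAs (snoRNAs) in their introns, and most have left processed pseudogenes in the genome.

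Members that turned out to differ between the siRNAs, and members with large changes, are shown by the first letters of their transcripts. The sequences below are from RefSeq on GRCh38.p14 and hold 15 bases before and 15 bases from the annotated start, read 5′ to 3′ on the gene's own strand. Capitals mark the tract, a C within 5 bases of the start with at least 5 C or T after it. The tract of RPL39 is 19 bases long and runs past the end of the letters shown.
RPS6, chr9:19380222-19380251, minus strand: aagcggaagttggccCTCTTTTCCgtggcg
RPS25, chr11:119018329-119018358, minus strand: tctgagcagcgcttcCTTTTTgtccgacat
RPLP0, chr12:120201097-120201126, minus strand: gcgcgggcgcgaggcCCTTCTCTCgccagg
RPL13A, chr19:49487593-49487622, plus strand: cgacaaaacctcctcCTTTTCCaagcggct
RPS27, chr1:153990747-153990776, plus strand: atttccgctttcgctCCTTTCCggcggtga
RPL39, chrX:119791616-119791645, minus strand: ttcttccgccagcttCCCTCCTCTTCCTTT

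Of the members, 63 had such a window, and 53 of these (84.1%) held a tract, 84.0% of the small and 84.2% of the large subunit genes. Among the other protein-coding genes of the table the share was 15.7% of 10305, and among all windows of the same kind 11.1% of 35116. For members with a tract, the log2 fold changes had medians of 0.98 (A) and 0.61 (B). The 10 members with a window and no tract had medians of 0.97 and 0.56. A match says only that these letters stand at the annotated start.

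In the libraries labelled siRNA A, the ribosomal protein genes were higher almost without exception. Of 77 tested, 75 were called higher and none lower, against 23.9% called higher and 27.6% lower among all tested genes. The median log2 fold change of the members was 0.97, against −0.02 over all genes, with quartiles of 0.84 and 1.09. In 74 members all 3 siRNA A libraries were above all 3 controls, which held for 27.6% of all genes, and 33 members were higher by more than 1 log2 unit, against 3.12% of all genes. The members that were not called were RPS25 and RPLP0. CPM is a share of a library, so more reads in a gene and more of its RNA per cell cannot be told apart here.

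With siRNA B the members were again higher, with a smaller median. The count was 60 higher and none lower, against 15.6% and 18.3% of all genes, with a median of 0.62 against 0.0043 for all genes. All siRNA B libraries were above all controls in 58 members, against 22.5% of all genes, and 3 members (RPL13A, RPS27 and RPL41) exceeded 1 log2 unit, against 1.16%. The 17 members not called included RPL8, RPL23, RPL26, RPL27A, RPL35, RPL36, RPL38, RPS6, RPS7, RPS13, RPS15, RPS26, RPS27A, RPS28 and FAU. Of all members, RPS6 alone had an estimate below 0. The count rested in part on single libraries. It was 37 without control replicate 2, 41 without control replicate 3, 42 without siRNA B replicate 1 or 3, and 69 without control replicate 1. Calls over all genes fell too without control replicate 2: 1395 of 13729 genes were then higher, against 2172 of 13893.

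Both comparisons use the same 3 controls. Higher in both were 58 members (21 small, 37 large), against 10.2% of all genes. Without control replicate 2 the members higher in both were 35, and the share of all genes was not computed for that setting. No member was called in opposite directions, and none was called in neither comparison.

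**Figure D1:**
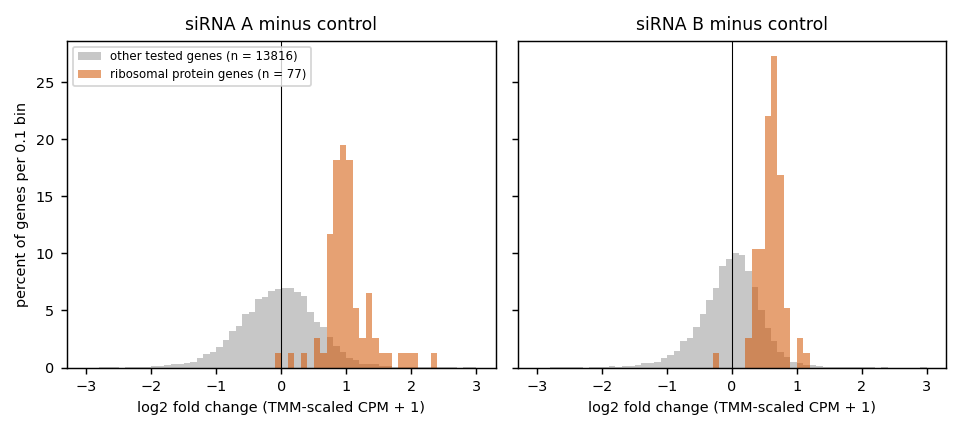
Percent of genes per 0.1 bin (vertical axis) of the log2 fold change on the TMM-scaled CPM + 1 scale (horizontal axis), for siRNA A minus control (left) and siRNA B minus control (right). Orange bars are the 77 ribosomal protein genes and grey bars the other 13816 tested genes. The members centre at 0.97 and 0.62, while the other genes centre near 0.

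The size of these changes depended on the scaling. With library totals alone, all genes had medians of −0.34 (A) and −0.18 (B), and the members 0.60 and 0.41. Then 65 members were higher and 1 lower with A, against 9.05% and 47.0% of all genes, and 34 higher and 1 lower with B, against 6.90% and 29.7%. The members called lower on that scale were RPS25 with A and RPS6 with B. Relative to the median of all genes, the members stood 0.995 (A) and 0.614 (B) higher on the TMM scale and 0.95 and 0.59 higher with totals alone. Leaving the members out when the TMM factors were computed left the counts at 75 and 60.

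The share of reads in these genes was also higher on average. The 77 genes took 2.42%, 1.92% and 1.92% of the reads of the control libraries, 3.2%, 3.22% and 2.58% with siRNA A, and 2.94%, 2.32% and 2.95% with siRNA B. The mean was 2.09% ± 0.289 in control, 2.998% ± 0.365 with A and 2.74% ± 0.358 with B (SD, n = 3 each). Replicate 3 of siRNA A and replicate 2 of siRNA B were the lowest of their groups. The A libraries lay above all controls, while B replicate 2 fell below control replicate 1, the highest control. Between 74 and 76 members exceeded their highest control in each A library on the TMM scale, and 73, 60 and 76 in B replicates 1, 2 and 3. The share of all tested genes that did so in a single library was not computed, so these counts only compare the libraries with each other.

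The medians of the small and large subunit genes lay close together. With A, 30 of 31 small and 45 of 46 large subunit genes were called higher, with medians of 0.959 and 0.996. With B the counts were 22 of 31 and 38 of 46, with medians of 0.60 and 0.62. Among all tested genes 23.9% were called higher with A and 15.6% with B. The mean log2 level of the small subunit genes minus that of the large was −0.23, −0.21 and −0.27 in the control libraries, −0.30, −0.29 and −0.31 with A, and −0.28, −0.28 and −0.27 with B. The group means were −0.24 ± 0.033, −0.30 ± 0.0096 and −0.28 ± 0.0059 (SD, n = 3 each). The A libraries lay below all controls by this measure and the B libraries overlapped them, and the shift of −0.06 with A is small beside the change of either subunit. No p-value is given for this score over members.

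By reads, 0.592 to 0.602 small subunit reads were counted per large subunit read in control, 0.573 to 0.591 with A and 0.576 to 0.584 with B. The small subunit genes took 0.781% ± 0.110 of reads in control, 1.11% ± 0.129 with A and 1.01% ± 0.136 with B. The large subunit genes took 1.31% ± 0.179, 1.89% ± 0.237 and 1.73% ± 0.222 (SD, n = 3 each).

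**Figure D2:**
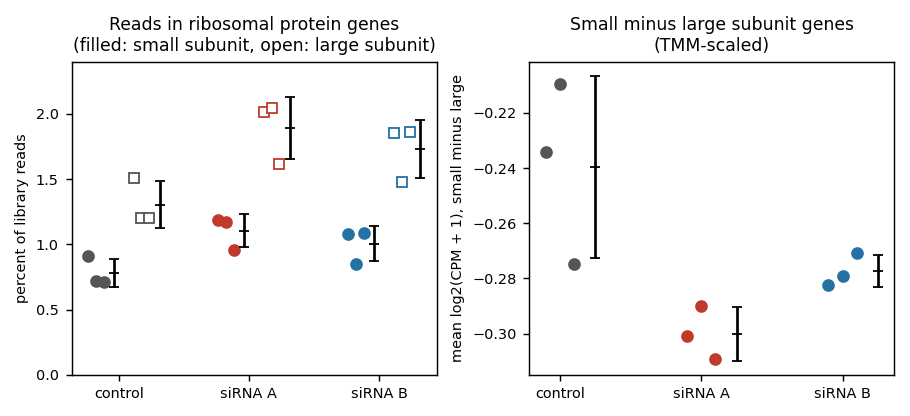
Left, percent of library reads (vertical axis) in small (filled) and large (open) subunit genes for each library of the 3 groups. Right, mean log2(TMM-scaled CPM + 1) of small minus large subunit genes. Bars are mean ± SD, n = 3. Both subunits took a larger mean share in both siRNA groups, and the small minus large difference was −0.24, −0.30 and −0.28 on average.

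Among the small subunit genes, RPS6, RPS25 and RPS27A were each called with 1 siRNA and differed between the siRNAs by the test. RPS6, the substrate of the S6 kinases below mTOR (chromosome 9, 19375713 to 19380234, minus strand, GRCh37), read 968, 802 and 832 CPM in control, 1208, 1074 and 909 with A and 701, 531 and 672 with B. The A libraries overlapped the controls in these deposited values, and the B libraries lay below all of them. On the TMM scale RPS6 was higher with A (log2 fold change 0.66, SE 0.14, adjusted p 0.0027) and was not called with B (−0.24, 95% interval −0.56 to 0.07, adjusted p 0.22). The siRNAs differed from each other by 0.90 (adjusted p 6.678e-04). With totals alone RPS6 was not called with A (0.29, adjusted p 0.10) and was lower with B (−0.46, adjusted p 0.024).

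RPS25, a protein of the small subunit head that some viral internal ribosome entry sites require (chromosome 11, 118886422 to 118889401, minus strand, GRCh37), ran the other way. It read 375, 294 and 299 CPM in control, 268, 215 and 248 with A and 457, 346 and 462 with B. In deposited CPM each A library lay below, and 2 of 3 B libraries above, all controls. The log2 fold change was −0.04 with A (95% interval −0.33 to 0.26, adjusted p 0.84) and 0.59 with B (SE 0.13, adjusted p 0.0055), and A was lower than B by 0.63 (log2 difference −0.63, adjusted p 0.0037). RPS25 overlaps CENATAC in the annotation. With totals alone it was called lower with A (−0.40, adjusted p 0.029) and was no longer called with B (0.38, adjusted p 0.054).

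RPS27A and FAU encode a ribosomal protein fused to ubiquitin or to a ubiquitin-like peptide, which is then cut off. RPS27A read 69.6, 55.3 and 55.4 CPM in control, 116, 147 and 109.9 with A, and 61.2, 67.0 and 60.3 with B. It was raised with A (1.40, SE 0.15, adjusted p 2.471e-05), and the B libraries lay within the control range (0.28, adjusted p 0.17). FAU read 103, 76.2 and 56.65 CPM in control, 149.7, 158 and 117 with A, and 96.6, 67.1 and 106 with B. The log2 fold changes of FAU were 1.24 with A (adjusted p 5.568e-04) and 0.42 with B (adjusted p 0.15).

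The 5 proteins around the mRNA entry channel (RPS2, RPS3, RPS9, RPS23, FAU) were all called higher with A and 4 of 5 with B, against 23.9% and 15.6% of all genes, with medians of 0.91 and 0.67. RPSA, which doubles as a laminin receptor, was higher by 1.01 and 0.82, and RPS18, of the small subunit head, by 0.96 and 0.85. RPS15, which helps export the small subunit from the nucleus, was higher with A (1.04) and not called with B (0.29). RPS20, of the head, changed by 0.75 and 0.72, one of the members with nearly equal estimates.

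RPS27, which carries a zinc finger, was the small subunit gene with the largest estimate in both comparisons. It read 7.39, 6.11 and 5.83 CPM in control, 18.8, 27.75 and 16.2 with A and 12.5, 14.9 and 11.5 with B. RPS3A, which lies near the mRNA exit side, read 27.6, 24.2 and 22.1 CPM in control, 52.4, 68.2 and 43.6 with A and 33.85, 35.9 and 36.1 with B. For both genes, all A libraries exceeded all B libraries, which in turn exceeded all controls. RPS27 changed by 1.86 with A (SE 0.20) and 1.09 with B (SE 0.20), and RPS3A by 1.46 and 0.71 (SE 0.16 each).

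In the large subunit, the stalk recruits elongation factors. It is built from RPLP0, which anchors pairs of RPLP1 and RPLP2, and sits beside RPL12. RPLP0 (chromosome 12, 120634502 to 120639038, minus strand, GRCh37) read 630.3, 568 and 551.5 CPM in control, 524, 531 and 480.1 with A, and 867, 697 and 864 with B. The B libraries lay above, and the A libraries below, all controls in deposited CPM. On the TMM scale the change was 0.18 with A (95% interval −0.07 to 0.43, adjusted p 0.21) and 0.68 with B (adjusted p 9.662e-04), and A was lower than B (log2 difference −0.50, SE 0.11, adjusted p 0.0057).

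Its partners were higher with both siRNAs. RPLP1 read 889, 724 and 705 CPM in control, 1234, 1231 and 888 with A, and 1252, 989 and 1230 with B. It was higher by 0.89 with A and 0.79 with B, RPLP2 by 0.87 and 0.77, and RPL12 by 0.76 and 0.73. On totals alone RPL12 with A gave 0.39 and was not called (adjusted p 0.052). Their differences between A and B were 0.10 (95% interval −0.26 to 0.45), 0.10 (−0.24 to 0.44) and 0.03 (−0.32 to 0.39), none of them called.

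**Figure D3:**
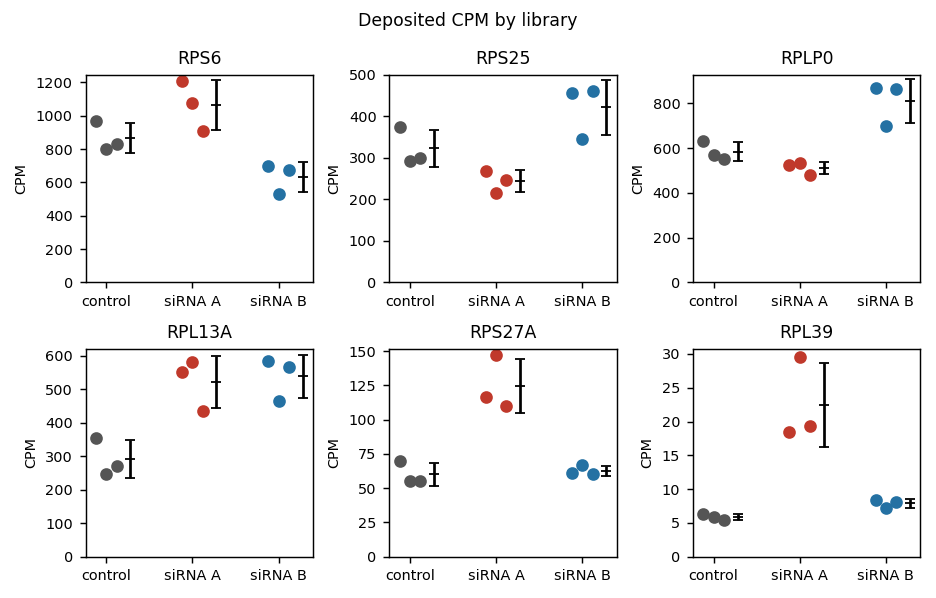
Deposited CPM (vertical axes, from 0) of RPS6, RPS25, RPLP0, RPL13A, RPS27A and RPL39 in each of the 3 control, siRNA A and siRNA B libraries. Bars are mean ± SD, n = 3. RPS6 is lowest with B, RPS25 and RPLP0 are lowest with A and highest with B, RPL13A is high with both, and RPS27A and RPL39 are high with A.

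RPL5 and RPL11 travel with a ribosomal RNA as a particle that, when not built into ribosomes, binds MDM2, the regulator of p53. RPL11 read 857, 673 and 669.9 CPM in control, 1192, 1105 and 979.6 with A, and 1080, 749.5 and 1115 with B. It was higher by 0.95 (SE 0.16) with A and 0.62 (SE 0.16) with B, and RPL5 by 0.99 and 0.73 (SE 0.13 each). Neither differed between A and B by the test (adjusted p 0.13 and 0.14). For RPL11 with B, 749.5 CPM lay inside the control range, and without control replicate 2 it was no longer called (adjusted p 0.0544), nor on totals alone (0.41, adjusted p 0.064).

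The 9 listed genes of the exit tunnel, through which the new chain leaves, were all higher with A and 7 of 9 with B (medians 1.04 and 0.56), and 7 of 9 were higher with A than with B, against 23.9%, 15.6% and 17.6% of all genes. RPL39, a very small protein of the tunnel wall, read 6.26, 5.90 and 5.40 CPM in control, 18.4, 29.55 and 19.4 with A, and 8.43, 7.16 and 8.12 with B. RPL17, which lines the tunnel, read 16.2, 16.8 and 14.3 CPM in control, 36.3, 47.15 and 36.5 with A, and 24.96, 22.03 and 19.98 with B. Both genes were far higher in every A library than in any other. RPL39 changed by 2.08 with A (SE 0.18, adjusted p 6.335e-06) and 0.56 with B (adjusted p 0.029), and RPL17 by 1.63 and 0.67. On library totals alone RPL39 was not called with B (0.38, adjusted p 0.10), nor with the GC correction (0.50, adjusted p 0.0501). The call with B was also lost without control replicate 2 or 3 and without siRNA B replicate 1 or 3 (adjusted p 0.0697 to 0.0923).

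RPL31, RPL26 and RPL35, also of the tunnel, had weaker or missing calls. RPL31 was the weakest call in the large subunit with A (0.39, SE 0.14, adjusted p 0.038), with A libraries inside the control range of deposited CPM, and lost it without control replicate 2 (0.27, adjusted p 0.168) and on totals alone (0.03, adjusted p 0.88). RPL26 was higher with A (1.11) and not called with B (0.35, adjusted p 0.080), and RPL35 likewise (0.82 and 0.32, adjusted p 0.19 with B). RPL36, outside the tunnel list, gave 0.82 and 0.33 (adjusted p 0.16 with B), and RPL37 was higher in both, by 0.55 and 0.69. On totals alone RPL37 with A gave 0.19 and was not called (adjusted p 0.20).

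The large subunit genes with the largest estimates were RPL7, RPL39 and RPL41 with A and RPL13A, RPL41 and RPL7 with B. RPL7, an RNA-binding protein of the large subunit, read 14.1, 12.2 and 12.7 CPM in control, 49.0, 70.6 and 43.2 with A, and 20.7, 25.0 and 17.3 with B. RPL41, one of the shortest known human proteins, read 27.9, 23.9 and 30.3 CPM in control, 76.25, 132.9 and 64.4 with A, and 50.4, 55.9 and 45.15 with B. RPL13A, which also acts outside the ribosome in repressing inflammatory mRNAs, read 355.5, 248 and 270.4 CPM in control, 551, 579.7 and 434 with A, and 584, 465 and 565 with B. In all 3 genes every siRNA library was above every control, and replicate 2 of A was the highest A library. The log2 fold changes were 2.31 and 0.84 (SE 0.20 each) for RPL7, 1.996 and 1.066 (SE 0.24 each) for RPL41, and 1.21 and 1.10 (SE 0.16 each) for RPL13A.

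**Figure D4:**
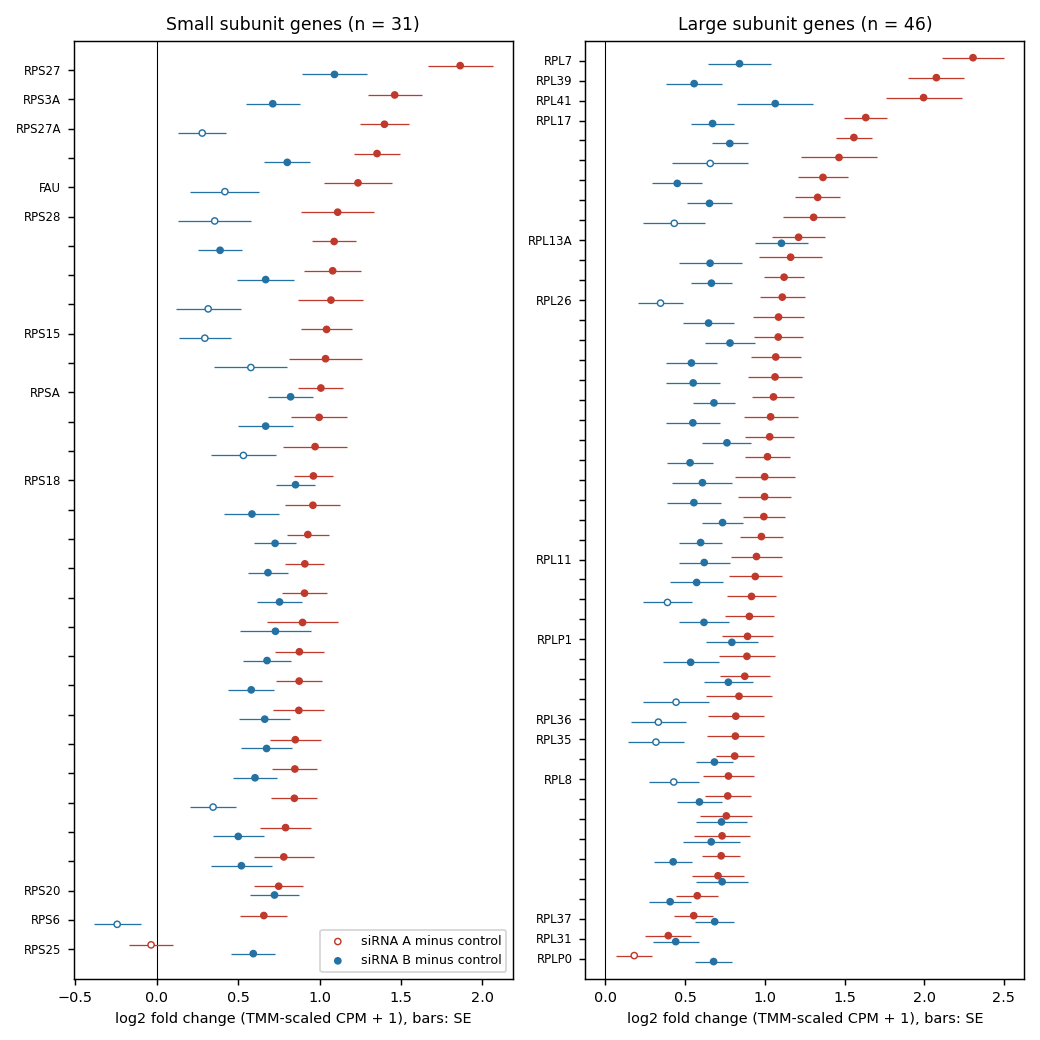
log2 fold change (horizontal axis) of each small (left) and large (right) subunit gene, siRNA A minus control in red and siRNA B minus control in blue, ordered by the siRNA A estimate. Labels mark the members with the highest and lowest estimates or levels. Bars are SE, filled points have an adjusted p under 0.05 and open points do not. Nearly all points lie right of 0, and RPS25 and RPLP0 (with A) and RPS6 (with B) are the open points farthest left.

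The siRNAs differed from each other in 34 of 77 members. With A, 32 were higher (11 small, 21 large) and 2 lower (RPS25 and RPLP0) than with B, against 17.6% and 19.5% of all genes, with a median of 0.37 against −0.01. In 32 members all A libraries were above all B libraries, against 22.6% of all genes. The largest differences were those of RPL39 (1.52, SE 0.18, adjusted p 9.407e-05), RPL7 (1.46, SE 0.20, adjusted p 2.326e-04) and RPS27A (1.12, SE 0.15, adjusted p 2.008e-04). With totals alone 20 members were higher and 2 lower, against 10.2% and 27.0%, and the higher count was 19 without A replicate 2 and also 19 without B replicate 2.

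Levels per length differed widely among genes whose proteins are needed in near equal number. In the control libraries, CPM per kilobase of coding length ran from 15.3 for RPL7, 21.9 for RPL21 and 22.4 for RPS27 to 1341 for RPL8, 1481 for RPL38 and 1977 for RPLP1. RPL8, the gene with the most reads, was higher with A by 0.77 and was not called with B (0.43, adjusted p 0.054), and RPS28, among the genes with the fewest reads, gave 1.11 and 0.36, called with A only. All 77 members have annotated pseudogenes, 1583 in all, of which 2 had a row in the table, so reads shared with near-identical copies may be missing from some members and their levels are uncertain.

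The estimate with A fell with the control level across members. Over the 77 genes, Pearson's r between the control log2 level and the log2 fold change was −0.65 (Spearman's rho −0.59) with A and −0.07 (0.10) with B. The control libraries enter both axes, and with the siRNA B level on the horizontal axis in place of the control level r with A was −0.62. Over 13364 other genes the values were 0.22 for A and 0.08 for B. These are descriptions across genes, which share libraries and are not independent replicates.

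Split by level, the 24 members under 100 CPM in control had medians of 1.28 with A and 0.60 with B, and 20 of the 24 were higher with A than with B. The 53 members at 100 CPM or more had medians of 0.91 and 0.62, and 12 of the 53 (22.6%) were higher with A than with B. That was the case for 17.6% of all tested genes and 33.3% of the 1714 other genes over 100 CPM. The count among the 53 is thus near these shares and is not read as a result about the members. Control level and number of annotated pseudogenes were related (r −0.42). The 25 members with more than 20 annotated pseudogenes had medians of 1.04 and 0.68, and the other 52 had 0.93 and 0.59. The part of shared reads in these differences was not tested.

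**Figure D5:**
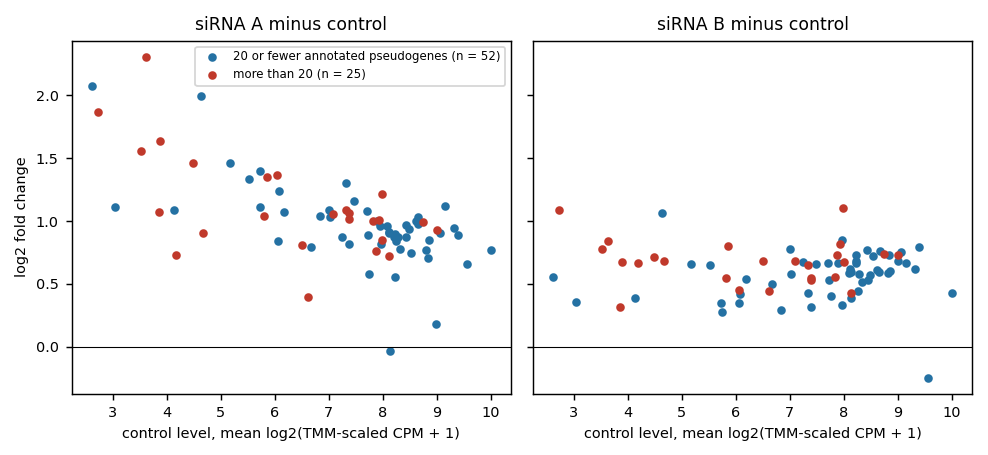
log2 fold change (vertical axis) against control level as mean log2(TMM-scaled CPM + 1) (horizontal axis), 1 point per member, for siRNA A (left) and siRNA B (right), coloured by the number of annotated pseudogenes. With A the genes of low level lie highest (r −0.65), and with B the points show little slope (r −0.07).

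Split by other features, the members had similar medians. The 29 members with snoRNAs in their introns (60 snoRNAs in all) had medians of 1.01 and 0.67, and the 48 without had 0.94 and 0.58. The 40 members that overlap no other annotated gene had medians of 0.93 and 0.62, with 39 called higher with A and 34 (85%) with B. The 37 that overlap one had 1.02 and 0.59, with 36 called higher with A and 26 (70.3%) with B. Among all tested genes 23.9% were called higher with A and 15.6% with B. Strand use in counting was not given in the sources used here, so reads of overlapping genes may have been split.

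Short and abundant transcripts outside the ribosome had smaller medians of the same sign. Of 82 other genes with over 100 CPM in control and a transcript under 1000 bases, 67.1% were called higher with A and 39% with B, with medians of 0.51 and 0.32. All 1714 other genes over 100 CPM had medians of 0.30 and 0.14. Reads of mitochondrially encoded genes were 16.7% ± 1.90 of the library in control, 19.8% ± 1.36 with A and 19.0% ± 3.14 with B (SD, n = 3 each). The part of transcript length, abundance and library composition in the members' change was not tested.

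Other genes of the same regulon and pathway were read from fixed lists. Of 19 tested mRNAs known to carry TOP tracts outside the ribosome, 17 were higher and 1 lower with A, and 15 were higher and none lower with B, against 23.9% higher with A and 15.6% with B among all genes, with medians of 0.85 and 0.64. EEF1A1, the elongation factor that delivers tRNA, was higher by 1.62 and 1.10, and TPT1, a growth-related protein, by 0.87 and 0.93. VIM, the intermediate filament protein, was the 1 lower with A (−0.53, adjusted p 0.016), at 1.35 to 4.66 CPM in the A and control libraries.

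Of 8 paralogs outside the naming rule 5 had a row, and all 5 were higher with A and 3 with B, against the same shares of all genes. RPL22L1 changed by 1.27 and 0.72, and RPS27L, a p53 target, by 0.49 and 0.89. For RPS27L the order of the siRNAs was the reverse of that of RPS27 (log2 difference between A and B −0.40, adjusted p 0.020).

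Of 16 regulators of mTOR and of TOP mRNAs, 7 were higher and 7 lower with A, and 3 were higher and 3 lower with B. Among all genes 23.9% were higher and 27.6% lower with A, and 15.6% and 18.3% with B, so the B counts were near the share of all genes. The stress-induced mTOR inhibitors SESN2 (1.14 and 1.24) and DDIT4 (0.58 and 0.82) were higher with both. RPS6KB2, an S6 kinase (−0.94 and −0.84), and RPTOR, the mTOR complex scaffold (−0.50 and −0.46), were lower with both. LARP1 was higher with A (0.72, adjusted p 1.188e-04) and not called with B (0.06, adjusted p 0.64).

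Of 8 dedicated chaperones and assembly factors of ribosomal proteins, 1 was higher and 3 lower with A, and none was higher and 3 lower with B. The lower shares of all genes were 27.6% and 18.3%, and with 8 genes no difference from these is read. HEATR3, which carries RPL5 into the nucleus, was lower with both (−0.60 and −0.35). TSR2, the chaperone of RPS26, was lower with B (−0.94, adjusted p 0.0013) and not called with A (−0.10, adjusted p 0.65). BCCIP, the chaperone of RPL23, was lower with A (−0.64, adjusted p 0.0014) and not called with B (0.17, adjusted p 0.32). RPS26 and RPL23 themselves were higher with A and not called with B. TSR2, BCCIP and LARP1 were named after their values were seen.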

How the data were processed

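HCT116 RNA-seq libraries were grouped by their titles, which the column names match. The authors deposited CPM values per gene, not scaled further. The submitters' processing notes name TopHat2, HTSeq and GRCh37/hg19 with no settings, and the annotation version and the use of strand were not given in the sources used here. Of the values, 100% were whole reads within 0.01 reads, which gave the library totals, and 1 CPM stood for 15.6 to 23.3 reads. Every member had at least 112 reads in every library, so all 77 passed the filter of at least 1 CPM in at least 3 libraries. The design had assumed counts or CPM. limma 3.58.1 with a variance trend was run in R 4.3.3 on log2(CPM + 1) after TMM scaling (edgeR 4.0.16), with all 9 libraries and a mean per group. p-values were adjusted by Benjamini-Hochberg over all 13893 tested genes of each of 3 comparisons. Fold changes on this scale understate the change of low genes.

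Alternatives were library totals, other pseudocounts and filters, length and GC corrections, a replicate block, leaving out each library, and edgeR and DESeq2 1.42.0 on the recovered reads. No pair of libraries agreed within sampling noise. The methods state 3 biological replicates, and p-values measure the spread between these libraries. Deviations of same-numbered A and control libraries correlated across genes at 0.65, 0.41 and 0.13. Correlations of different-numbered libraries were not computed, so whether the numbers mark pairs is not known. The scripts were tested on simulated data. Identifiers were matched without version to GENCODE lifted to GRCh37 (14871 of 15354), which gave names, coordinates, overlaps, snoRNAs and pseudogenes. The members and lists were chosen with earlier results of these data known. Named members were the 3 highest and 3 lowest estimates per subunit and comparison, the 3 highest and lowest levels, and the stalk, RPL5, RPL11, RPS6, RPS27A and FAU. Named related genes were those called in both comparisons with the largest changes (by the smaller of their A and B estimates), at most 2 each way per list. Results of some items of these lists are not reported here. VIM was named as a single exception. RPL21, RPL23, RPL38 and RPS26 were named for their values or chaperones.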

Additional observations from a re-analysis of the deposited data

Results flagged for a closer look

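These members are listed because their difference between siRNA A and siRNA B, each against the same controls, passed limma's test at an adjusted p under 0.05. They were drawn from the 28 members named for their estimates, levels or roles. RPL21 (0.78), RPL23 (0.53) and RPS26 (0.75), named for other reasons, also passed it. RPS25 (−0.63) and RPLP0 (−0.50) were lower with A than with B. RPS6 (0.90), RPS27A (1.12), FAU (0.82), RPS15 (0.75), RPS28 (0.76), RPL26 (0.76), RPL35 (0.50) and RPL36 (0.49) were higher with A than with B and were not called with B against control. RPS3A (0.75), RPS27 (0.77), RPL41 (0.93), RPL17 (0.96), RPL7 (1.46) and RPL39 (1.52) were higher than control with both siRNAs, and more so with A. Of RPL39, the call with B was lost in several settings, as given above. The differences of RPL35 and RPL36 were near the threshold (adjusted p 0.046 each) and were lost without siRNA A replicate 1 (0.43 and 0.38). Both were also lost without siRNA A replicate 2 and without siRNA B replicate 1 or 2. Library totals alone (adjusted p 0.143 and 0.142) and no filter on low values (0.0557 and 0.0559) lost both too. RPL36 was lost without control replicate 3 as well. RPL41 was 0.60 without siRNA A replicate 2, and RPS28 was 0.45 and no longer called (adjusted p 0.0521). RPS28 was also not called without siRNA B replicate 1 (0.76, adjusted p 0.053) or replicate 2 (0.70, adjusted p 0.0508). SNHG5 itself was higher in the libraries labelled siRNA A than in those labelled siRNA B (0.46, adjusted p 0.016).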

How the results depend on the processing

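With library totals alone, the members called lower became 1 with A and 1 with B, the medians fell to 0.60 and 0.41, and the members called higher fell to 34 with B, 20 for A over B and 30 in both. Leaving out 1 library gave 74 to 75 members higher with A, 37 to 69 with B, 19 to 39 for A over B and 35 to 67 in both. Under edgeR, DESeq2, the length and GC corrections and the other pseudocount and filter, 74 or 75 were higher with A and 57 to 65 with B. The replicate block gave 75 (A), 67 (B) and 36 (A over B) and lost no member call. Deviations of same-numbered B and control libraries correlated at 0.17, 0.44 and −0.39, and whether the numbers mark pairs is not known. Positive A minus B estimates fell from 72 to 63 members with totals alone. Among all members, estimates that changed sign then were RPLP0 with A (−0.1873) and, for A minus B, RPLP1 (−0.058), RPLP2 (−0.053), RPL12 (−0.1256), RPS20 (−0.1302), RPS18 (−0.0462) and RPL13A (−0.0487). For A minus B, RPL22 (−0.028), RPL36A (−0.0826) and RPS3 (−0.0027) changed sign as well. Under the other settings, signs of single estimates were followed only for 28 members named for their estimates, levels or roles. Among these, the length correction gave RPL12 −0.0282 for A minus B. Leaving out 1 library turned the sign of some estimates of these 28 members, with these ranges: RPS25 with A −0.1389 to 0.0818 and, for A minus B, RPLP1 −0.0088 to 0.2791, RPL12 −0.0893 to 0.1574, RPS20 −0.0613 to 0.1872, RPL31 −0.1565 to 0.0249 and RPL13A −0.0035 to 0.2579. None of the estimates that changed sign was called. The cause was not tested. With 3 libraries a group, SEs of 0.11 to 0.24 limited which members could pass, and reads shared with pseudogenes limit levels.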
